A study of Homo sapiens with 10 samples.

Results

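The genes of the RNA decay machinery described here were 34 genes of the RNA exosome, deadenylation, decapping, exonucleolytic decay and nonsense-mediated decay, chosen by gene symbol from the 58870 genes of the deposited count table. All 34 symbols were found once each, and all 34 passed the filter on low counts. They were measured by mRNA sequencing in LS180, an established human colorectal cancer cell line that received no drug. CRISPR interference, in which a catalytically inactive Cas9 is guided to a promoter to repress transcription, gave 3 stable lines in which RNASE1 was targeted (sg1, sg2 and sg3) and 2 lines whose guides target nothing (NTC1 and NTC2). RNASE1 encodes pancreatic-type ribonuclease, an enzyme that cells secrete. Every cell line gave 2 libraries with the letters A and B, so that 6 guide libraries stood beside 4 NTC libraries and 5 B libraries beside 5 A libraries. The labels do not give what the letters stand for, nor if both libraries of a line were grown separately. The p-values therefore measure only how these samples vary, and that variation may be technical.

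RNA decay removes messenger RNA from both ends. Deadenylases shorten the poly(A) tail, the exosome then digests the body from its 3′ end, and decapping opens the 5′ end to the exonucleases XRN1 in the cytoplasm and XRN2 in the nucleus. Nonsense-mediated decay finds transcripts with premature stop codons through the helicase UPF1, and is also known to limit a set of normal transcripts. The exosome is needed by every cell for RNA processing and turnover, and these genes are broadly expressed housekeeping genes in colorectal epithelium as elsewhere.

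The libraries held 39026605 to 45050991 expected counts after rounding to whole numbers, and the 34 genes took 0.392% to 0.438% of them. Levels are depth-scaled counts after TMM scaling (CPM). The targeted gene RNASE1 was at 1.38, 3.75 and 1.57 CPM in the B libraries of sg1, sg2 and sg3 and at 1.02, 3.36 and 1.66 CPM in their A libraries, against 23.7 and 22.9 CPM in NTC1 and NTC2 with letter B and 16.4 and 19.1 CPM with letter A. Its log2 fold change was -3.26 (SE 0.25; edgeR quasi-likelihood test, adjusted p = 8.37e-05). All 10 listed markers of colorectal epithelium were detected, with a summed level of 5644 to 7217 CPM in guide libraries and 5747 to 7274 CPM in NTC libraries. The 5 fibroblast markers summed to 2.69 to 4.12 CPM in guide libraries and 2.34 to 3.59 CPM in NTC libraries, with COL1A2 listed at 0 throughout. The 4 endothelial markers summed to 0.0224 to 0.358 CPM in guide libraries and 0.0472 to 0.285 CPM in NTC libraries, with KDR at 0. The 5 leukocyte markers summed to 35.1 to 45.1 CPM in guide libraries and 42.3 to 45.96 CPM in NTC libraries, nearly all of it LYZ and CD68, with PTPRC at 0.

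The promoters of UPF1, UPF2, SMG1 and SMG6 are shown because these 4 genes of nonsense-mediated decay differed together between the letters, and that of EXOSC5 because it had the lowest B over A fold change of the 10 exosome genes among the 34. Sequences are from RefSeq on GRCh38.p14, from 250 bases before to 50 bases after the transcription start, 5′ to 3′ on the gene's strand. Capitals mark the letters CCAAT or GGGGCGGGG, searched on both strands, so that CCCCGCCCC is the second of these read from the other strand.

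UPF1 promoter, chr19:18831709-18832008, plus strand: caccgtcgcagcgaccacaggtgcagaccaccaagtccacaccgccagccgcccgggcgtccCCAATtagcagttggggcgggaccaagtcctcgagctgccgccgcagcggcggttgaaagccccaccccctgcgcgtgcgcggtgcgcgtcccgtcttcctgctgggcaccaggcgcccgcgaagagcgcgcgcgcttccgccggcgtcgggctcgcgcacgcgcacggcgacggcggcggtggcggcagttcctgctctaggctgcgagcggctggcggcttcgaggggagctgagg
UPF2 promoter, chr10:12043121-12043420, minus strand: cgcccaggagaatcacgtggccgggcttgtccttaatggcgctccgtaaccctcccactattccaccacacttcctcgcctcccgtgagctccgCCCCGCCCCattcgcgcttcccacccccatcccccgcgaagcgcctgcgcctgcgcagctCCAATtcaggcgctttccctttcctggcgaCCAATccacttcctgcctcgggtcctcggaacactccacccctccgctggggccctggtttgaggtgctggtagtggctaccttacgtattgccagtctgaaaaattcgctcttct
SMG1 promoter, chr16:18926359-18926658, minus strand: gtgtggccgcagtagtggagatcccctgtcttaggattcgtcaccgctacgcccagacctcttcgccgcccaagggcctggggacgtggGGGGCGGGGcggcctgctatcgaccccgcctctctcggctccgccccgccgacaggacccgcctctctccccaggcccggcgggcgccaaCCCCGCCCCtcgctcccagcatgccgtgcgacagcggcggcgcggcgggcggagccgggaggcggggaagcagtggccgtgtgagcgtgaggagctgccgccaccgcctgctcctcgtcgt
SMG6 promoter, chr17:2303736-2304035, minus strand: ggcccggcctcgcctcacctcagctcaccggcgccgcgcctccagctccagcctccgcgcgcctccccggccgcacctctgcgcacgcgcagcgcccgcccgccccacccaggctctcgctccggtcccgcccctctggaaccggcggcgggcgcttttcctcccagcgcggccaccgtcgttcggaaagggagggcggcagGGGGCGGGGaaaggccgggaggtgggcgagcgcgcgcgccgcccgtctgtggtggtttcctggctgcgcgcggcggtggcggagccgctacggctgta
EXOSC5 promoter, chr19:41397310-41397609, minus strand: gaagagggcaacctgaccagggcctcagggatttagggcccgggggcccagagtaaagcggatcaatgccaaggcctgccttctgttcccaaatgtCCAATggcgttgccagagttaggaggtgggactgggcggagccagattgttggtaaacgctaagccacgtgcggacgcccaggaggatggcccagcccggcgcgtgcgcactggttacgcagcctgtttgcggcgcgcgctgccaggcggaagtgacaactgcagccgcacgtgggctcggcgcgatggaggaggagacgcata

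RefSeq windows were found for 28 of the 34 genes, 42 windows in all because some genes have several starts. The letters GGGGCGGGG, a form of the SP1 site, were in 13 of the 42 windows (30.95%), beside 15.7% of 35116 windows of all genes. CCAAT was likewise in 13 of the 42 windows, beside 34.6% of all windows, and the ETS form CCGGAAG was in 5 (11.9%), beside 10.3%. TATAAA was in 1 window, that of EXOSC8, beside 11.5% of all windows. In the windows shown above, no marked motif overlaps another. The windows of the decay genes had a median GC content of 64.2% and 27 CpG, those of all genes 58.7% and 14 CpG.

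Levels per transcript length differed widely among the genes. Over the 10 libraries the mean was 448 CPM per kb for PABPC1, the cytoplasmic poly(A)-binding protein. It was 70.0 CPM per kb for CNOT1, the scaffold of the CCR4-NOT deadenylase, and 55.9 CPM per kb for EXOSC4, a core subunit of the exosome ring. XRN2 stood at 48.4 CPM per kb, against 2.00 CPM per kb for its cytoplasmic counterpart XRN1. LSM1, a subunit of the LSM ring that binds the shortened tail, was at 28.8 CPM per kb, and UPF1 at 28.7 CPM per kb. MTREX, the helicase that feeds RNA to the nuclear exosome, was at 27.3 CPM per kb, and its partner ZFC3H1 was the lowest of the 34 genes at 1.99 CPM per kb. The median gene was at 18.6 CPM per kb. Each gene's own level varied little. The highest library exceeded the lowest by 1.07- to 1.43-fold, and 21 of 34 genes stayed below 1.2-fold over all 10 libraries. In bulk RNA, fewer cells of a kind and less RNA per cell cannot be told apart.

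The comparison of guide lines with NTC lines asks whether genes of RNA decay differ in level when a ribonuclease is repressed. None of the 34 genes passed the threshold in either direction (edgeR quasi-likelihood test on A and B summed per line, adjusted p under 0.05), and DESeq2 called 0 as well. Among all 17335 genes tested, edgeR called 0.0231% and DESeq2 0.317%. At an unadjusted p under 0.05 edgeR had 3 of the 34 genes (CNOT3, CNOT7 and UPF1), beside 7.98% of all genes. Over the 34 genes the log2 fold change had its median at -0.02, and over all genes tested at -0.000826, with 15 positive and 19 negative values.

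The measurement was precise enough to bound each gene closely. The 95% interval lay within 1.1-fold in either direction for 24 of the 34 genes, beside 37.1% of all genes tested. It lay within 1.2-fold for all 34, beside 59.5%. Genes with few counts lower both shares. Among genes at a mean of 5 CPM or more, as all 34 are, 59.7% lay within 1.1-fold and 94.0% within 1.2-fold, so such narrow intervals are not particular to the decay genes. CNOT1 had the narrowest interval, 0.945- to 1.02-fold, and ZFC3H1, the gene with the lowest level per kb, the widest at 0.858- to 1.06-fold.

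**Figure D1:**
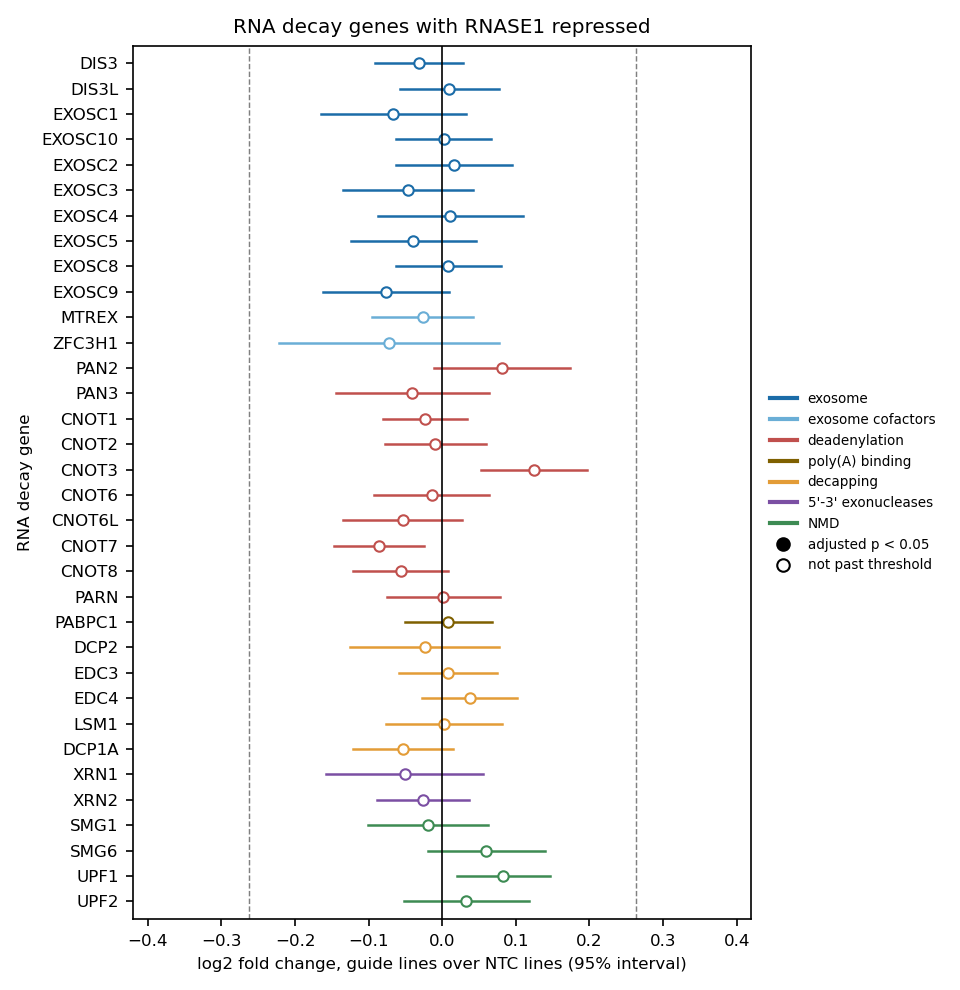
Log2 fold change of each of the 34 RNA decay genes in the guide lines over the NTC lines (edgeR, 3 guide and 2 NTC lines), with its 95% interval as a bar. Colours mark the role, filled points would mark an adjusted p under 0.05, and dashed lines stand at 1.2-fold. All points are open, and all 34 intervals lie inside the dashed lines.

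Deadenylation held the smallest p-values. CNOT3, a regulatory subunit of CCR4-NOT, was at 57.5, 57.2 and 60.2 CPM in sg1, sg2 and sg3, against 53.6 and 53.3 CPM in NTC1 and NTC2. Every guide line lay above both NTC lines, and the means were 58.3 ± 1.64 CPM (SD, n = 3 lines) and 53.5 ± 0.256 CPM (SD, n = 2 lines). The log2 fold change was 0.12 (SE 0.03), an interval of 1.04- to 1.15-fold, which did not pass over all genes (edgeR adjusted p = 0.326). CNOT3 is at chr19:54137717-54155708, plus strand, on GRCh38 (GENCODE release 29).

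The CNOT3 difference was larger in the A libraries. With letter A it was at 56.3, 54.9 and 56.5 CPM in sg1, sg2 and sg3, against 49.8 and 47.9 CPM in NTC1 and NTC2. With letter B it was at 58.7, 59.6 and 63.8 CPM in the guide lines, against 57.3 and 58.8 CPM in the NTC lines, so the groups overlapped. The log2 fold change was 0.19 with A libraries alone and 0.07 with B libraries alone, and the test of that difference did not call the gene.

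CNOT7, a catalytic deadenylase subunit of CCR4-NOT, was at 163, 165 and 162 CPM in sg1, sg2 and sg3, against 169.9 and 177 CPM in NTC1 and NTC2. All guide lines lay below both NTC lines. The log2 fold change was -0.09 (SE 0.03; edgeR adjusted p = 0.436). Its paralog CNOT8, the alternative subunit in the same position, was at 62.4, 61.6 and 60.7 CPM in the guide lines, against 63.9 and 64.2 CPM in the NTC lines, and had a log2 fold change of -0.06. CNOT1 averaged 589 ± 9.11 CPM in guide lines and 599 ± 11.4 CPM in NTC lines (SD, n = 3 and n = 2 lines), and the groups overlapped. PAN2, the catalytic subunit of the PAN2-PAN3 deadenylase, was at 24.2, 24.1 and 23.6 CPM in guide lines, against 23.2 and 22.1 CPM in NTC lines, a log2 fold change of 0.08. The other deadenylation genes (CNOT2, CNOT6, CNOT6L, PAN3 and PARN) had log2 fold changes between -0.05 and 0.00.

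In the exosome, 5 of 10 genes had positive and 5 negative values, none past the threshold, with log2 fold changes from -0.08 to 0.02. EXOSC4 averaged 49.8 ± 1.77 CPM in guide lines and 49.4 ± 3.72 CPM in NTC lines. EXOSC9, a core subunit, was at 30.8, 30.9 and 29.2 CPM in sg1, sg2 and sg3, against 31.7 and 32.2 CPM in NTC1 and NTC2. It had the lowest fold change of the exosome, and its guide libraries were below its NTC libraries within each letter. DIS3, the catalytic subunit of the nuclear exosome, was at 92.1, 93.6 and 91.5 CPM in guide lines, against 93.8 and 95.1 CPM in NTC lines. EXOSC10, the other nuclear exonuclease of the complex, had a log2 fold change of 0.00 and a 95% interval of 0.958- to 1.05-fold. Of the nuclear cofactors, MTREX averaged 113 ± 3.63 CPM in guide lines and 116 ± 0.979 CPM in NTC lines, and ZFC3H1 14.2 ± 1.07 CPM in guide lines and 15.0 ± 1.18 CPM in NTC lines.

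Nonsense-mediated decay held the third gene with an unadjusted p under 0.05. UPF1 was at 156, 156 and 159 CPM in sg1, sg2 and sg3, against 152 and 145 CPM in NTC1 and NTC2. The guide lines lay above both NTC lines, with a log2 fold change of 0.08 (SE 0.03; edgeR adjusted p = 0.480). As with CNOT3, the value was larger with A libraries alone (0.14) than with B libraries alone (0.05), and the test of that difference did not call it. SMG6, the endonuclease that cuts the targeted transcript, was at 30.6, 31.6 and 31.1 CPM in guide lines, against 29.8 and 29.9 CPM in NTC lines. UPF2, the adaptor that activates UPF1, and SMG1, the kinase that phosphorylates UPF1, had overlapping groups and log2 fold changes of 0.03 and -0.02.

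PABPC1 averaged 1565 ± 40.9 CPM in guide lines and 1556 ± 12.7 CPM in NTC lines, a log2 fold change of 0.01 with a 95% interval of 0.965- to 1.05-fold. In decapping, the catalytic subunit DCP2, its enhancers EDC3 and EDC4, and LSM1 had log2 fold changes from -0.02 to 0.04. DCP1A, the activator of DCP2, was at 54.5, 56.0 and 55.8 CPM in guide lines, against 58.3 and 56.8 CPM in NTC lines, and its guide libraries were likewise below its NTC libraries within each letter. XRN2 averaged 165 ± 4.22 CPM in guide lines and 168 ± 1.31 CPM in NTC lines, and XRN1 20.04 ± 0.539 CPM in guide lines and 20.8 ± 1.202 CPM in NTC lines.

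Over the line sums, guide and NTC lines did not overlap for 9 of 34 genes, 4 higher (CNOT3, PAN2, SMG6 and UPF1) and 5 lower (CNOT7, CNOT8, DCP1A, DIS3 and EXOSC9), beside 24.5% of all genes tested (12.6% higher and 11.9% lower). For no gene did the 6 guide libraries lie wholly above or wholly below the 4 NTC libraries, beside 0.914% of all genes. Within A and within B separately, DCP1A and EXOSC9 did not overlap, both lower, beside 3.86% of all genes (2.35% higher and 1.52% lower). These shares for the 34 genes are near those of all genes.

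**Figure D2:**
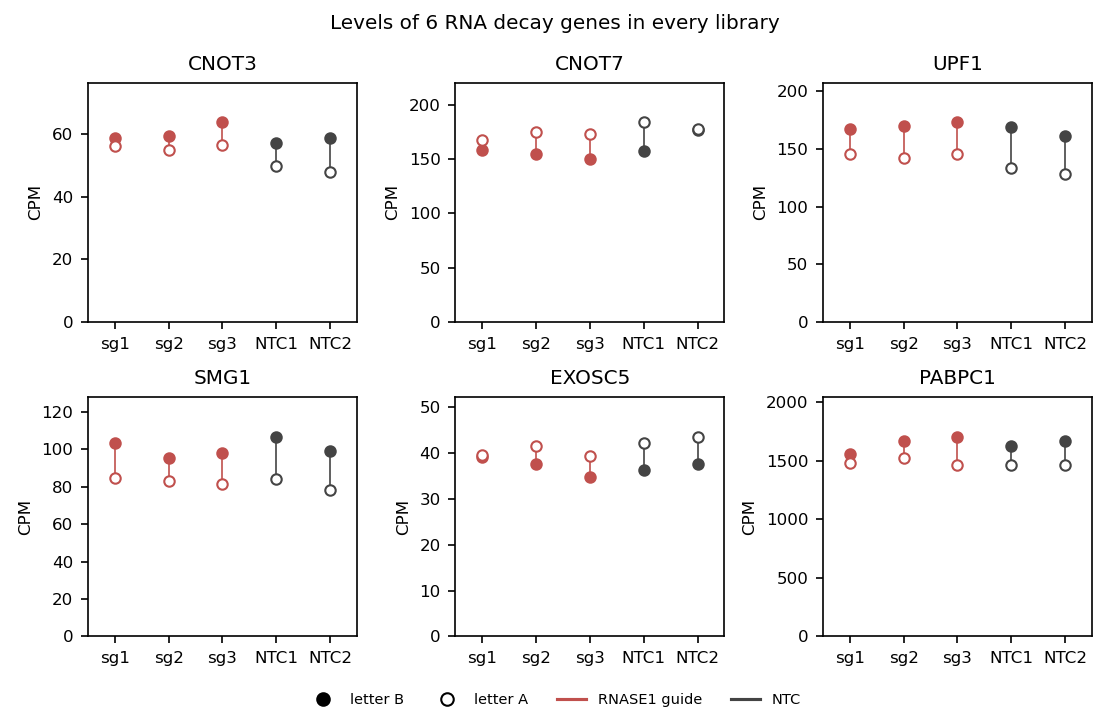
Level in CPM of 6 RNA decay genes in every library, with RNASE1 guide lines (red) left of NTC lines (grey). Filled points are B libraries, open points A libraries, and a line joins the libraries of a cell line. CNOT3 and UPF1 are lowest in the A libraries of NTC1 and NTC2, and in all 5 lines UPF1, SMG1 and PABPC1 are higher with letter B.

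GC content moved with the difference between arms. Across genes, Spearman's rho between the log2 fold change and transcript GC content was 0.63 over the 34 genes and 0.50 over 9523 genes at 10 CPM or more. Genes are not independent replicates, and the values share the same libraries. With a correction for GC content, CNOT3 had a log2 fold change of 0.10, UPF1 of 0.05 and CNOT7 of -0.05. Then 1 gene, CNOT3, had an unadjusted p under 0.05, and none of the 34 was called, beside 0.0173% of all genes.

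Taken one at a time against the NTC lines, sg1, sg2 and sg3 gave 0 of 34 genes each past the threshold by edgeR and by DESeq2. In edgeR each guide called 0.00609% of 16411 genes, which is RNASE1 alone, and DESeq2 called 0.0366% for sg1 and 0.0244% for sg2 and for sg3. None of the 34 had an unadjusted p under 0.05 in edgeR for any guide, beside 2.30%, 1.82% and 2.16% of all genes for sg1, sg2 and sg3. This fit, also used below among guides and for NTC2 against NTC1, leaves out the letter, although the letters pair the samples. The letter difference therefore counts as spread between libraries in it. With the letter as a block in this fit, 2, 1 and 6 of the 34 had an unadjusted p under 0.05 for sg1, sg2 and sg3, beside 7.56%, 6.14% and 7.43% of all genes, and none passed the threshold. CNOT3 had log2 fold changes of 0.11, 0.10 and 0.17 for sg1, sg2 and sg3, UPF1 of 0.08, 0.08 and 0.11, and CNOT7 of -0.09, -0.08 and -0.10. These comparisons share the NTC libraries. The intervals were wider here, within 1.36-fold for sg1, 1.30-fold for sg2 and 1.32-fold for sg3 for every one of the 34 genes. With the letter block they lay within 1.31-fold, 1.17-fold and 1.21-fold.

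A test of any difference among the 3 guide lines called 0 of 34 genes by edgeR and by DESeq2 (0% of all genes by edgeR and 0.0487% by DESeq2), and none of the 34 had an unadjusted p under 0.05 in edgeR, beside 1.38% of all genes. The line NTC2 against NTC1, neither of which carries an RNASE1 guide, likewise gave 0 of 34 by both tools (0% of all genes by edgeR and 0.0122% by DESeq2), and none had an unadjusted p under 0.05 in edgeR, beside 1.72%. With the letter as a block in this edgeR fit, 1 of the 34 had an unadjusted p under 0.05 among guides, beside 4.18% of all genes. For NTC2 against NTC1 it was 2, beside 5.06%, and none passed the threshold in either test. For 19 of 34 genes the absolute difference of NTC2 from NTC1 exceeded that of guide lines from NTC lines, with medians of 0.04 and 0.03 on the log2 scale. The first difference is between single lines and the second between means of 3 and 2 lines, so the first spreads more by design. The count therefore cannot show how the difference between arms stands to that between control lines.

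Whether the difference between arms depended on the letter was tested as an interaction. It called 0 of 34 genes by edgeR and by DESeq2 (0% of all genes by edgeR and 0.0183% by DESeq2), and edgeR had 1 gene, EXOSC4, at an unadjusted p under 0.05, beside 5.73%. With letter B, EXOSC4 was at 52.5, 47.9 and 48.6 CPM in sg1, sg2 and sg3, against 45.3 and 47.1 CPM in NTC1 and NTC2. With letter A it was at 51.0, 49.1 and 49.3 CPM in the guide lines, against 48.4 and 57.0 CPM in the NTC lines. The A library of NTC2 was the highest of all 10 libraries for this gene.

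The letters separated more of these genes than the guides did. Between B and A libraries of the same line, 19 of 34 genes passed the threshold (edgeR with line as a block, adjusted p under 0.05), 13 higher and 6 lower in B. Of all 16411 genes tested, 29.6% were called, 14.6% higher and 15.0% lower. Among genes at a mean of 5 CPM or more, where 20 of the 34 were called, the share was 44.8%, with 23.1% higher and 21.7% lower. DESeq2 called 13 of the 34, beside 24.1% of all genes, and at an unadjusted p under 0.05 edgeR had 22 of 34, beside 39.5%. The 34 genes had a median of 0.06 on the log2 scale, beside 0.000403 for all genes. The absolute letter difference exceeded the absolute arm difference for 29 of 34 genes, with medians of 0.10 and 0.03. Over all genes tested these medians were 0.12 and 0.05, so a larger letter difference is not particular to the decay genes.

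UPF1, UPF2, SMG1 and SMG6, the 4 genes of nonsense-mediated decay among the 34, were all past the threshold and higher in B. Their median log2 fold change was 0.26. Of all genes 14.6% were higher, and of those at 5 CPM or more 23.1%. Of genes over 4 kb at 10 CPM or more, as all 4 are, 35.2% were higher. SMG1 was at 104, 95.7, 97.8, 107 and 99.1 CPM in the B libraries of sg1, sg2, sg3, NTC1 and NTC2, against 84.9, 82.9, 81.6, 84.2 and 78.2 CPM in their A libraries. No B library reached down to an A library. The log2 fold change was 0.29 (SE 0.03; edgeR adjusted p = 1.97e-05). SMG1 is at chr16:18804853-18926454, minus strand, and shares sequence with pseudogenes, so its count is uncertain. The 7 SMG1 pseudogenes in the table summed to 15.8 to 17.9 CPM in B libraries and 13.6 to 17.5 CPM in A libraries. SMG1P3 and SMG1P1 were called higher in B, with log2 fold changes of 0.56 and 0.46. SMG1P5, which had the most counts of the 7, was at -0.14 and SMG1P4 at -0.71, neither called. SMG1P2, SMG1P6 and SMG1P7 had positive values and were not called.

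UPF1 was at 167, 169.9, 173, 169 and 161 CPM in the B libraries of sg1, sg2, sg3, NTC1 and NTC2, against 145, 142, 145, 133 and 128 CPM in their A libraries. The letters did not overlap, and the log2 fold change was 0.28 (SE 0.03; edgeR adjusted p = 2.07e-05). UPF2 was at 47.1, 49.6, 51.3, 51.2 and 49.6 CPM with B, against 43.1, 44.97, 42.5, 42.5 and 37.8 CPM with A, again without overlap, and had a log2 fold change of 0.24 (SE 0.04; edgeR adjusted p = 0.000568). SMG6 was at 32.2, 34.4, 31.7, 31.4 and 33.6 CPM with B, against 29.1, 28.97, 30.5, 28.1 and 26.4 CPM with A. Its letters did not overlap either, with a log2 fold change of 0.19 (SE 0.04; edgeR adjusted p = 0.0043). UPF1 is at chr19:18831938-18868236 on the plus strand, and UPF2 (chr10:11920022-12043170) and SMG6 (chr17:2059839-2303771) are on the minus strand.

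PABPC1 was higher with letter B, at 1552, 1669, 1702, 1626 and 1668 CPM in sg1, sg2, sg3, NTC1 and NTC2, against 1482, 1526, 1463, 1465 and 1466 CPM with letter A. The letters did not overlap, and the log2 fold change was 0.15 (SE 0.03; edgeR adjusted p = 0.000669).

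In deadenylation 3 of 10 genes were higher and 1 was lower in B, beside 23.1% and 21.7% of genes at 5 CPM or more. CNOT3, whose 5 values per letter are given above, was higher by 0.17 (SE 0.04; edgeR adjusted p = 0.0026), and its lowest B library lay above its highest A library. CNOT1 was at 592, 618, 612, 610.4 and 630.3 CPM in the B libraries of sg1, sg2, sg3, NTC1 and NTC2, against 566, 578, 571, 571 and 585 CPM in their A libraries, higher by 0.09 with no overlap (SE 0.02; edgeR adjusted p = 0.0076). PARN, the poly(A)-specific ribonuclease, was higher by 0.10. CNOT7 was lower, at 158, 155, 150.3, 157 and 177 CPM with B, against 167, 175, 173, 184 and 177 CPM with A. The B library of NTC2 lay inside the range of A, and the log2 fold change was -0.14 (SE 0.03; edgeR adjusted p = 0.0066).

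In the exosome 3 of 10 genes were higher and 4 lower in B. Of all genes at 5 CPM or more, 23.1% were higher and 21.7% lower. Both genes of its DIS3 family were higher, DIS3 by 0.12 and DIS3L, the cytoplasmic homolog, by 0.14. EXOSC9, a core subunit, was higher by 0.12. DIS3L was at 63.1, 63.9, 65.3, 63.6 and 67.2 CPM with B, against 57.8, 60.6, 60.2, 58.1 and 56.7 CPM with A, with no overlap (SE 0.03; edgeR adjusted p = 0.0048). The 4 genes lower in B, EXOSC1, EXOSC3, EXOSC5 and EXOSC8, encode ring and cap subunits and had log2 fold changes from -0.15 to -0.11. All 4 are under 2 kb long, and 41.0% of genes of that length at 10 CPM or more were lower. EXOSC5 was at 39.1, 37.6, 34.7, 36.3 and 37.5 CPM with B, against 39.5, 41.6, 39.3, 42.1 and 43.5 CPM with A. The letters did not overlap, narrowly, and edgeR gave an adjusted p of 0.0065 (log2 fold change -0.15, SE 0.04). EXOSC4 did not pass, at 48.3 ± 2.65 CPM with B and 51.0 ± 3.48 CPM with A (SD, n = 5 libraries each).

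In decapping DCP2 and DCP1A were higher in B, by 0.11 and 0.10, while LSM1 was lower. That is 2 of 5 genes higher and 1 lower, beside 23.1% and 21.7% of genes at 5 CPM or more. LSM1 was at 32.3, 29.4, 30.5, 30.8 and 32.3 CPM with B, against 34.98, 36.5, 34.2, 35.4 and 33.6 CPM with A. No B library reached an A library, and the log2 fold change was -0.17 (SE 0.04; edgeR adjusted p = 0.0056). EDC4 narrowly missed the threshold (edgeR adjusted p = 0.051).

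The exonucleases and the nuclear cofactors did not pass, and their 95% intervals lay within 1.2-fold. XRN2 was at 163, 171, 167, 168 and 172 CPM in the B libraries of sg1, sg2, sg3, NTC1 and NTC2, against 159.7, 169, 161, 167 and 166 CPM in their A libraries, with an overlap although B was above A in each line. MTREX was at 109, 115, 112, 114 and 118 CPM with B, against 117, 119.7, 108, 119 and 112 CPM with A. ZFC3H1 was at 11.9, 15.1, 15.6, 17.1 and 14.9 CPM with B, against 14.2, 15.3, 13.2, 14.5 and 13.5 CPM with A, and both its lowest and its highest library had letter B.

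Across the 34 genes, B and A libraries did not overlap for 10 genes higher and 4 lower in B, beside 19.2% of all genes (9.64% higher and 9.58% lower). B was on the same side of A in all 5 lines for 16 genes higher and 7 lower, beside 34.6% of all genes (17.6% higher and 17.0% lower). Neither share was taken among genes at 5 CPM or more. For calls, that restriction raised the share to 44.8% from 29.6%. The counts therefore cannot show that the letters separate decay genes more than other genes of like level.

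**Figure D3:**
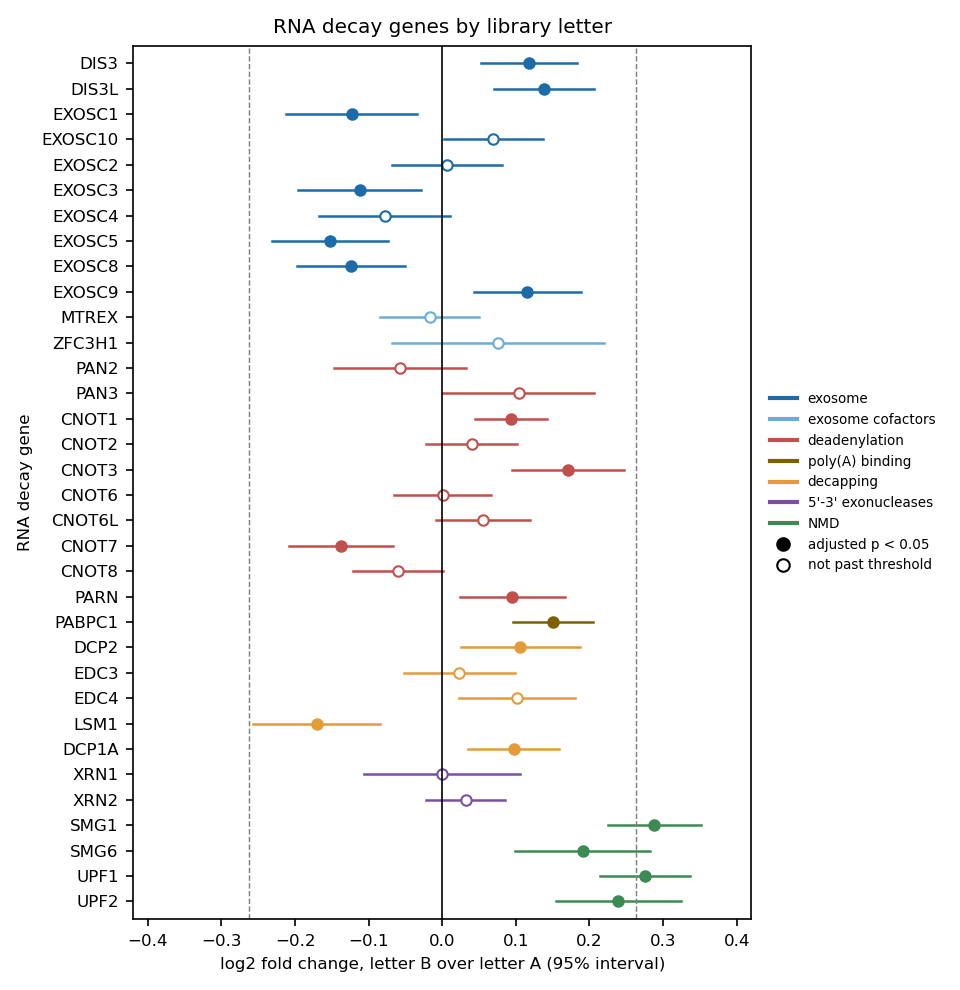
Log2 fold change of each RNA decay gene in B over A libraries (edgeR, 10 libraries with line as a block), with its 95% interval. Filled points mark an adjusted p under 0.05, colours mark the role, and dashed lines stand at 1.2-fold. The 4 genes of nonsense-mediated decay are all filled and lie to the right of 0, at 0.19 to 0.29.

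Transcript length moved with the letter difference. Across genes, Spearman's rho between the letter log2 fold change and length was 0.48 over the 34 genes and 0.43 over 9523 genes at 10 CPM or more, as a description over genes that share the same libraries. The shares by length given next are of these genes at 10 CPM or more. Of the 17 decay genes over 4 kb, 9 were higher and 1 lower in B, beside 35.2% higher and 11.8% lower in that class. Of the 7 under 2 kb, 1 was higher and 5 were lower, beside 5.16% and 41.0%. Of the 10 from 2 to 4 kb, 3 were higher and 0 lower, beside 15.4% and 23.2%. The genes of nonsense-mediated decay are 5.35 kb (UPF1), 5.57 kb (UPF2), 5.96 kb (SMG6) and 16.1 kb (SMG1) long. The median gene over 4 kb, among those at 10 CPM or more, had a log2 fold change of 0.05. Of the epithelial markers 4 of 10 were higher and 3 lower in B, beside 14.6% and 15.0% of all genes. Among genes at 5 CPM or more, 23.1% were higher and 21.7% lower. The summed level of the markers was 5644 to 6673 CPM in B libraries and 7012 to 7274 CPM in A libraries. The part of length, or of what moved the epithelial markers, in the letter difference was not tested.

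**Figure D4:**
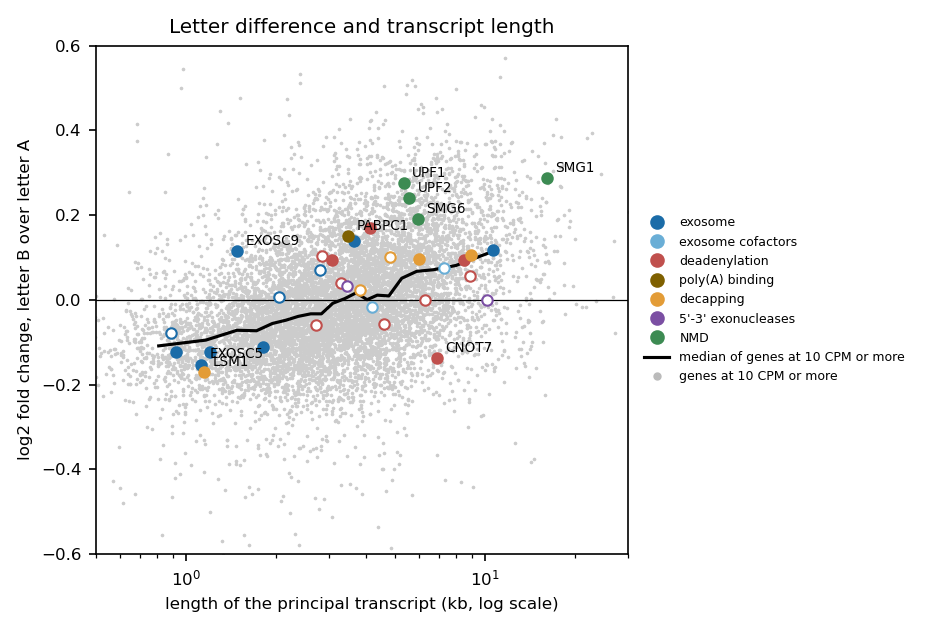
Log2 fold change in B over A libraries against length of the principal transcript (log axis) for the 34 RNA decay genes (coloured by role, filled where adjusted p is under 0.05) and 9523 genes at 10 CPM or more (grey dots, of which 20 lie beyond the axis). The black line is the median of all these genes in 20 equal classes of length, which lies below 0 for short and above 0 for long transcripts, with UPF1 and UPF2 above it.

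Other genes of the same pathways were read as lists. Of 93 listed genes that are not among the 34, 92 were in the table and 91 were tested. Between guide and NTC lines edgeR called 0 of the 91 genes, DESeq2 called 0 as well, and 12 had an unadjusted p under 0.05 in edgeR, beside 7.98% of all genes and 10.4% of those at 5 CPM or more. For 85 of the 91, the 95% interval lay within 1.2-fold, beside 59.5% of all genes tested and 94.0% of those at 5 CPM or more. The ribonuclease relatives gave the smallest adjusted p, that of RNASE4, at 0.434 (log2 fold change -0.22, SE 0.07). RNH1, the cytosolic inhibitor that binds RNASE1 and its relatives, had a log2 fold change of 0.04 (SE 0.03). Transcripts known as substrates of nonsense-mediated decay gave 0 of 14 by edgeR, and none of the 14 had an unadjusted p under 0.05.

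Between letters, 25 of the 91 genes were higher and 16 lower in B, with a median log2 fold change of 0.03. Of all genes, 14.6% were higher and 15.0% lower, and of those at 5 CPM or more, 23.1% and 21.7%, which the counts of each list below can be read against. DESeq2 called 37 of the 91. Among the 12 further genes of nonsense-mediated decay, 8 had positive and 4 negative values and 3 were higher (UPF3B by 0.37, SMG9 by 0.17 and UPF3A by 0.13), and no further gene of that list passed. Among deadenylation genes 6 of 14 were higher and 2 lower. The scaffolds TNRC6B and TNRC6A, which link microRNA-bound Argonaute to CCR4-NOT, were higher by 0.27 and 0.26. In decapping and 5′ to 3′ decay 3 of 14 were higher, among them the helicase DDX6 by 0.23, and 6 were lower. Those 6 included 5 LSM genes, with LSM2 at -0.24 and LSM5 at -0.20, beside the LSM1 value of -0.17 given above. Among proteins that bind AU-rich elements 4 of 8 were higher, including HNRNPD by 0.26 and KHSRP by 0.16. In the exosome list 2 of 15 were higher and 3 lower, with C1D at -0.26. Of 6 uridylation genes 2 were higher and 1 lower, and TUT4, a terminal uridylyltransferase, was higher by 0.28. Among endoribonucleases 3 of 8 were higher, with ZC3H12A by 0.55 and DICER1 by 0.27. Of the 14 substrates of nonsense-mediated decay, 2 were higher (GADD45B by 0.44 and SNHG12 by 0.39) and 4 lower (UPP1, ZFAS1, SRSF3 and TBL2, from -0.33 to -0.12).

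**Figure D5:**
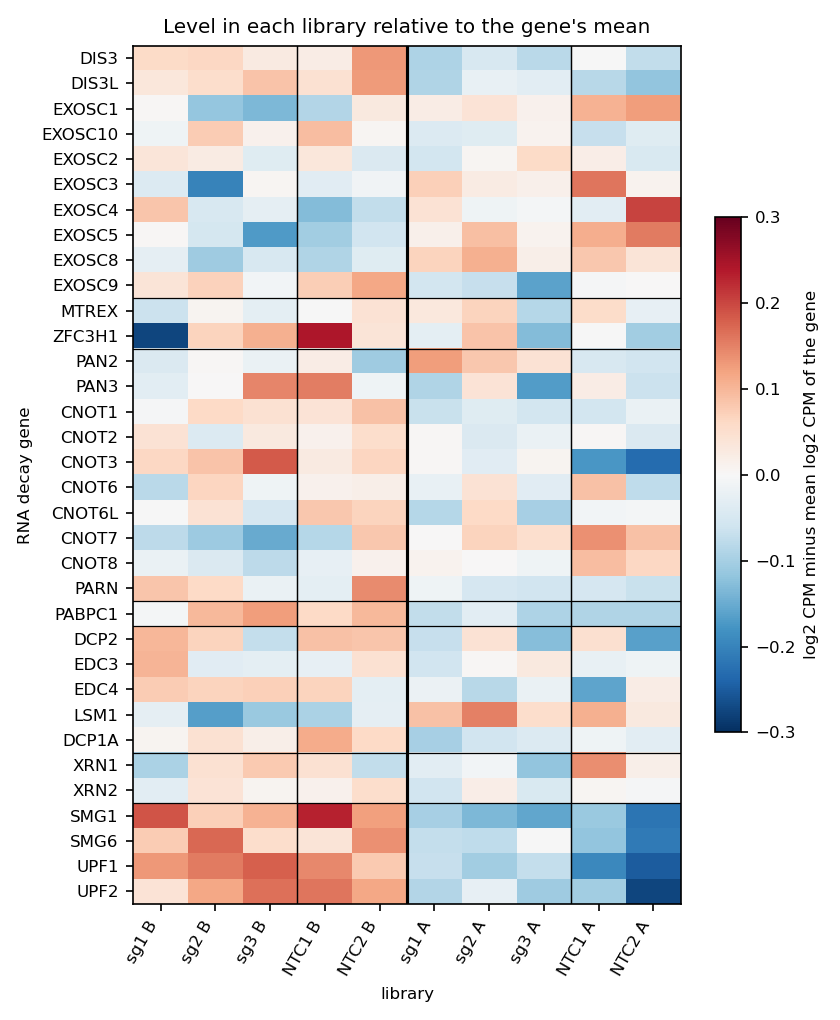
Log2 CPM of each of the 34 RNA decay genes in each library, relative to the gene's mean over all 10 libraries (colour scale from -0.3 to 0.3). B libraries stand left of A libraries, with guide lines left of NTC lines in each block. The rows of UPF1, UPF2, SMG1 and SMG6 are red in B and blue in A libraries, but for pale or near-white cells with either letter. Their log2 fold changes between letters were 0.19 to 0.29.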

How the data were processed

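The values are gene-level expected counts that the authors deposited in a single table, which its name credits to RSEM. The submitters' processing notes name hg38 as the build and list FastQC 0.11.2, TopHat2 2.0.8 and CASAVA 1.8.2 without their roles, and no source used here gives the annotation. Per the labels' protocols, oligo(dT) beads selected poly(A) RNA and strand was not marked, so overlapping genes have uncertain counts. Apart from strand, the counts of paralogs (DIS3 and DIS3L, CNOT6 and CNOT6L, CNOT7 and CNOT8) may be uncertain as well. Values of 6 of the 34 genes were not whole in at least 1 library, and counts were rounded. These were EDC4, PABPC1, EXOSC3, CNOT6L and SMG1 in 10 libraries each and CNOT7 in 4. Lengths and GC content are those of the longest principal transcript in GENCODE release 29.

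edgeR 4.0.16 in R 4.3.3 was run on all genes (TMM, filterByExpr, quasi-likelihood, two-sided, Benjamini-Hochberg over all genes tested, threshold 0.05). Arms were compared on A and B summed per line, 3 guide against 2 NTC lines. Letters were compared over 10 libraries with line as a block. Single guides, NTC2 against NTC1 and the guides among themselves came from 1 fit with 5 line means and no term for the letter. An interaction term tested arm by letter. Intervals are 95% Wald intervals with the t quantile, and in edgeR their variance draws in part on all genes tested. DESeq2 1.42.0, other scaling, filters, a GC correction and left-out lines or libraries were the alternatives. Counts of 467 to 74390 per library lay behind each gene's value, and the intervals include that counting error and the variation among samples. The fits were also run on simulated counts with known fold changes. Apart from the changes put in, those counts had no differences between lines or letters. They therefore do not test how the intervals hold under such differences. Without spike-ins, all levels are relative to the library total.

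Deviations of same-lettered libraries from their line means were correlated for 10 of 10 pairs (r from 0.250 to 0.448 over 16411 genes), so the letters pair the samples. The pairing is read from these values. The 34 genes, their roles and the lists were chosen with earlier results of these data known. Genes were named by 1 rule: genes past the threshold, up to 10 per comparison by p, the most abundant per kb in each role, the 3 smallest p between arms and between letters, the widest and narrowest interval, and up to 4 pathway genes per list past the threshold. Genes outside it (CNOT8, PAN2, EXOSC9, DIS3, DCP1A, SMG6 between arms, and EXOSC10) were chosen after their values were seen, as were RNASE4 and RNH1. The gene N4BP1 was not analysed here, and ENDOU was listed at 0 in every library.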

Additional observations from a re-analysis of the deposited data

Results flagged for a closer look

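Of 140 gaps examined within groups of 4 to 10 libraries, 5 had 1 library far from the rest (a gap, as a share of the group's range, above Dixon's 95% critical value), while chance gives about 1 in 20. The B library of NTC2 was apart for 3 genes. EDC4 was at 68.7 CPM there, against 73.5 to 74.0 CPM in the other B libraries, a share of 0.9011. PARN was at 64.7 CPM there, against 56.0 to 57.5 CPM in the other NTC libraries (0.8294), and EDC3 at 64.1 CPM, against 61.2 to 61.6 CPM (0.8369). EXOSC3 was at 32.2 CPM in the B library of sg2, against 35.9 to 37.1 CPM in the other B libraries (0.7648). DCP2 was at 43.1 CPM in the B library of sg3, against 47.4 to 48.5 CPM (0.7966).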

How the results depend on the processing

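Between guide and NTC lines, 0 of 34 genes were called by edgeR or DESeq2 in all 25 alternatives, and the smallest adjusted p was 0.0698, that of CNOT3 with no filter on low counts. Over these alternatives the median log2 fold change of the 34 genes ran from -0.04 to 0.00290. The widest bound of any gene was 1.255-fold with a line and 1.254-fold with a library left out, 1.21-fold with A libraries alone and 1.32-fold with B libraries alone. With letter as a replicate block 0 genes were called, and CNOT3 stood at 0.13; the block changed no call of the 34 genes in any comparison. Between arms, over all genes, the block called 9 in the fit with 5 line means and 2 in the fit with arm and letter alone. Both fits took the 10 libraries as the unit, whereas the main fit, which called 4, took line sums. In the single-line comparisons the block moved the count to 4, 2 and 6 from 1 each for sg1, sg2 and sg3. It moved the count to 2 from 0 for NTC2 against NTC1 and to 8 from 0 among guides. RNASE1 ran from -3.87 to -2.99, with an adjusted p of at most 0.0150.

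Between letters, 19 genes were called. DESeq2 called 13, all among the 19. Guide lines alone called 11 and NTC lines alone 9, with fewer libraries in each, and leaving out 1 line called 13 to 17. All 19 kept their direction in all 13 alternatives. SMG1, UPF1, UPF2, PABPC1, CNOT3 and DIS3L were called in every one of the 13, while DCP2 and EXOSC1 were lost in 8, and EXOSC3 and PARN in 7. ZFC3H1, with the lowest level, had the widest interval between arms. The meaning of the letters is unknown, which limits every reading of their difference.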
